A study of Mus musculus with 24 samples.

Results

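Myh6, Myh7, Myh7b and Mhrt are 4 of the 56923 genes counted in nuclei of mouse cardiomyocytes (CMs), and they are described here across the first 2 weeks after birth. They were chosen by name as the cardiac myosin heavy chain genes and the long noncoding RNA of their locus. The choice was made with earlier results of these data known, in which Mhrt rose between P1 and P7 in control nuclei. Values of that comparison are therefore given below as a description, without a test. All 4 genes were among the 20368 that passed the filter on low counts. Nuclei came from snap-frozen ventricles and had been sorted on PCM1, which surrounds the nucleus of CMs, at postnatal day 1 (P1), P7 and P14. The control mice, XMLC2(-)Casp2(fl/fl), carried floxed Casp2 alleles without Cre recombinase, although the labels call their genotype WT. The Casp2-depleted mice, XMLC2(+)Casp2(fl/fl), carried the same floxed alleles and Cre under the XMLC2 promoter, which acts in CMs. Each library was made from a pool of 15 hearts at P1, 6 at P7 and 2 at P14, so that no library is a single animal. The deposited file names mark the replicate number as a batch, the labels say no more about how the pools differ, and the p-values measure the spread between pools. Of 24 libraries, 4 for each genotype and day, the study left out 3 for low quality. These were replicate 1 of the P1 controls, replicate 3 of the P14 controls and replicate 1 of the Casp2-depleted P14 group. The 21 others entered the fit.

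Myosin heavy chain is the motor protein of the thick filament of the sarcomere. In the mouse ventricle the slow isoform beta, encoded by Myh7, is the main form before birth and is replaced by the fast isoform alpha, encoded by Myh6, a switch driven by thyroid hormone. Myh7b is an older relative of both that is transcribed in heart and slow muscle. Mhrt is a nuclear long noncoding RNA of the same locus. It is transcribed in the direction opposite to Myh7 and is known to bind the chromatin remodeler Brg1, the product of Smarca4.

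On GRCm39, with gene models of GENCODE vM39, Myh6 (ENSMUSG00000040752) lay on the minus strand at chr14:55179367-55205887. Myh7 (ENSMUSG00000053093) lay on the same strand at chr14:55208141-55232084. Mhrt (ENSMUSG00000097652) lay on the plus strand at chr14:55205795-55229058, so that it covered 87.4% of the Myh7 gene and overlapped the first 93 bases of Myh6. Myh7b (ENSMUSG00000074652) lay apart from them on the plus strand, at chr2:155453096-155476234. The map of the chromosome 14 locus shows that a read inside Myh7 and Mhrt can be assigned only by its strand.

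**Figure D1:**
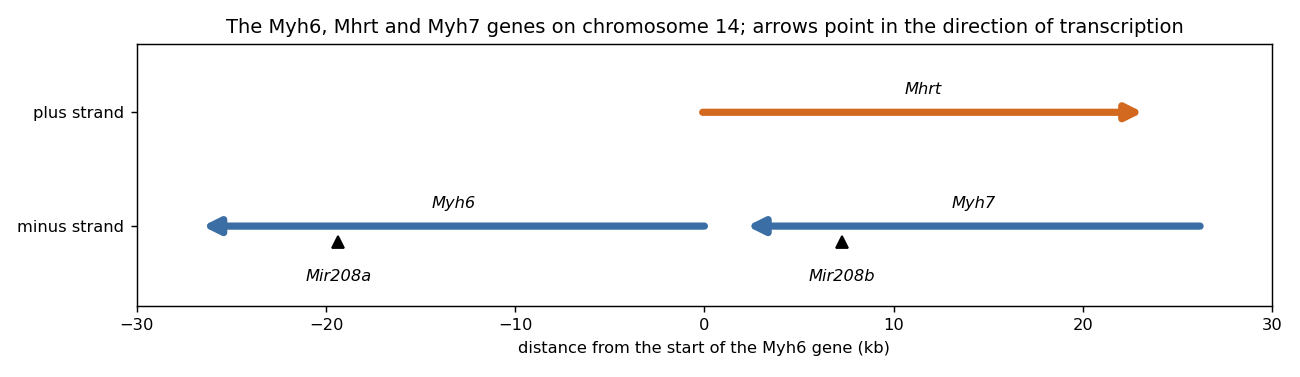
The Myh6, Mhrt and Myh7 genes drawn to scale by strand, with the x axis as the distance from the start of Myh6 in kilobases and triangles at the microRNA genes Mir208a and Mir208b. Mhrt runs away from Myh6 on the other strand and covers 87.4% of Myh7.

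Each of the 3 myosin genes carries a microRNA in an intron, on the strand of its host. These sequences are shown because each is cut from the primary transcript of its host gene, whose reads are counted below. The mature microRNAs, from RefSeq and placed on GRCm39 by exact match, are given 5′ to 3′, with the seed (bases 2 to 8) in capitals.
miR-208a-3p, in Myh6 (chr14:55186529-55186550, minus strand): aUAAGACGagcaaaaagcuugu
miR-208b-3p, in Myh7 (chr14:55213167-55213188, minus strand): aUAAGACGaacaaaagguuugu
miR-499-5p, in Myh7b (chr2:155464813-155464833, plus strand): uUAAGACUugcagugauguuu
The microRNAs of Myh6 and Myh7 shared their seed and 19 of 22 bases, while the seed of miR-499-5p had another last base. The miR-208b gene also lay inside Mhrt, on the opposite strand. The microRNA genes had a row each in the files and held 0 reads in the 24 libraries, so only their host genes were measured.

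The start regions of the 3 genes of the chromosome 14 locus are shown because Myh6 and Mhrt start within 2180 bases of each other, on opposite strands. Each sequence is a RefSeq promoter window of 300 bases, from 250 before to 50 after the start site, 5′ to 3′ on the strand of the gene. The RefSeq starts of Myh6 and Mhrt lay 1823 and 449 bases inside the GENCODE genes given above. Capitals mark TATAAA (letters known from TATA boxes) and CATTCC (known from MCAT elements, bound by TEAD factors), searched on both strands.
Myh6 (chr14:55204015-55204314, GRCm39, minus strand): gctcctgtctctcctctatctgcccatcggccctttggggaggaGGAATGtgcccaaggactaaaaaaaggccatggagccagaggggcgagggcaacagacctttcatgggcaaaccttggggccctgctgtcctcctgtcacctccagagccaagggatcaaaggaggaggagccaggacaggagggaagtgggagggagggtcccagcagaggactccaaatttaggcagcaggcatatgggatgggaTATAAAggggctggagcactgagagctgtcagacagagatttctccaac
Mhrt (chr14:55205994-55206293, GRCm39, plus strand): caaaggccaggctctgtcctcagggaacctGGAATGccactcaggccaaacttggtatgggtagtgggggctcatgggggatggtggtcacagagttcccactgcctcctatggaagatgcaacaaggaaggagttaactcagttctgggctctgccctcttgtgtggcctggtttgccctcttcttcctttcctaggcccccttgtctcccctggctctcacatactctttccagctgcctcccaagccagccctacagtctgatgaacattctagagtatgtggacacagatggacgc
Myh7 (chr14:55232034-55232333, GRCm39, minus strand): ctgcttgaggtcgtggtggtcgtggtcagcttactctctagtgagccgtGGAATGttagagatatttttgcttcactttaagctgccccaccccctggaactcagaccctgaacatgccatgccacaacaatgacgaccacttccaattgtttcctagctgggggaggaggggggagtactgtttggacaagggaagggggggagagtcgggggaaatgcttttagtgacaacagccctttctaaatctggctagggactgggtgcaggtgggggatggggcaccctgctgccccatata
CATTCC stood on the reverse strand in each, 206, 220 and 201 bases before the start of Myh6, Mhrt and Myh7. The window of another RefSeq start of Myh7, at chr14:55231957-55232256 and not shown, held none of the motifs searched. CATTCC was found in 14.7% of the 32851 RefSeq promoter windows of the mouse. TATAAA stood in the Myh6 window only among these 3, at the RefSeq start site rather than before it, against 13.6% of all windows. The letters AGATAA, known from sites of Gata4 and its relatives, were in 11.2% of all windows and in none of these 3. The nuclear receptor motif AGGTCA was in 16.3% of all windows and in none of these 3, and both were in the Myh7b window. A match is a description of the letters and not of a factor's binding.

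The libraries held 891817 to 2924097 reads on genes, and 3 reads, the limit that a count of 0 allows, corresponded to 1.03 to 3.36 CPM, the read count scaled to a common library total. By day they held 1220640 to 2727103 reads at P1, 1452114 to 2924097 at P7 and 891817 to 1278961 at P14. Genes detected numbered 14006 to 17770 at P7 and 7628 to 13651 at P14. Depth and detected genes thus did not overlap between P7 and P14. An analysis at equal depth is among the alternatives given at the end. Casp2 itself could not check the labels at this depth, since it had 9 reads in 4 P7 control libraries, 8 in 4 P7 Casp2-depleted libraries and 0 at P1 and P14. Of 12 CM marker genes, Myh6 among them, all had reads in every group, with a summed level of 18093 to 98570 CPM. The lists of 8 markers each for endothelial cells (51.6 to 1115 CPM), mural cells (86.8 to 520.1), fibroblasts (75.4 to 379), macrophages (42.0 to 303) and skeletal muscle (34.8 to 284), and 7 for erythroid cells (0 to 109.6), were low beside them. At P1 the median CM sum was 61192 CPM in control and 46874 CPM in Casp2-depleted nuclei. From P7 to P14 the median CM sum went from 83409 to 32983 CPM in control and from 68489 to 20807 in Casp2-depleted nuclei, while the endothelial median went from 219 to 414 and from 294 to 587. At P14 the endothelial markers Cdh5, Kdr, Fabp4 and Cldn5 were at 0 in Casp2-depleted nuclei, and Cldn5 in control nuclei. The part of these shifts in the differences between days was not tested. The share of uniquely placed reads on no gene was 36.8 to 73.9% at P1, 34.3 to 64.3% at P7 and 63.7 to 76.1% at P14. It moved with the differences between P7 and P14. From P1 to P7 its median went from 61.2 to 47.7% in control and from 59.0 to 52.4% in Casp2-depleted nuclei. Once this share was added to the fit, Mhrt no longer passed the test between P7 and P14, as given below, nor between P1 and P7 in Casp2-depleted nuclei. In bulk nuclei, fewer nuclei of a type and less RNA per nucleus cannot be told apart.

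Mhrt and Myh6 were among the most abundant nuclear RNAs. Mhrt ranked 3rd to 10th of all genes in each of the 21 libraries, and Myh6 5th to 31st. Per kilobase of gene, in CPM scaled by the trimmed mean of M-values (TMM), Mhrt stood at 339 ± 183 (SD, n = 3) in P1 control nuclei, 1225 ± 549 (n = 4) at P7 and 261 ± 145 (n = 3) at P14. In the same unit Myh6 stood at 204 ± 128, 601 ± 153 and 122 ± 96.6, Myh7b at 14.5 ± 7.61, 30.2 ± 7.55 and 3.26 ± 2.42, and Myh7 at 4.61 ± 2.30, 1.95 ± 1.52 and 1.16 ± 0.737. The order Mhrt, Myh6, Myh7b, Myh7 held in these means on all 3 days. In control nuclei the gap between the means of Mhrt and Myh6 at P1 and P14, and that between Myh7b and Myh7 at P14, was smaller than the larger of their SDs. These are reads from transcript 3′ ends counted over exons and introns, so a gene that is primed inside its introns is counted more often.

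**Figure D2:**
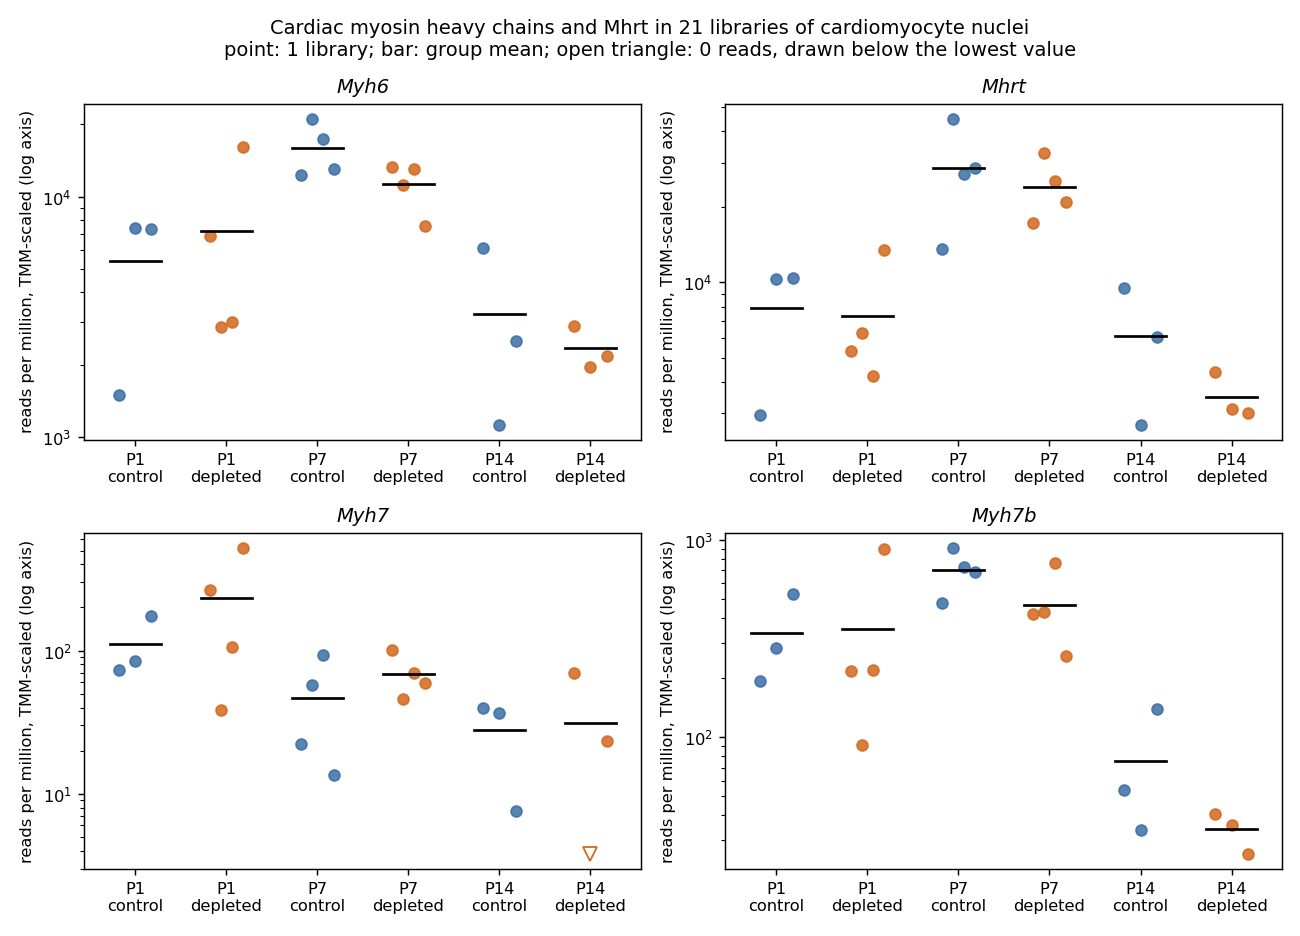
Level of each gene in the 21 libraries, in TMM-scaled CPM on a log axis, for control (blue) and Casp2-depleted (orange) nuclei at P1, P7 and P14, with bars at the group means and an open triangle for a count of 0. Mhrt and Myh6 are highest at P7 in both genotypes, Myh7b is lowest at P14, and Myh7 is highest at P1.

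Mhrt was higher at P7 than at P1 and lower again at P14, in both genotypes. In control nuclei it stood at 2968, 10271 and 10399 CPM in the 3 P1 libraries and at 13625, 44795, 27014 and 28600 in the 4 P7 libraries. At P14 it stood at 9473, 2703 and 6069. The P7 libraries lay above all P1 and P14 libraries. In control nuclei 6.89% of all tested genes were likewise higher at P7 than at P1 with no overlap, and 13.5% lower at P14 than at P7. The difference between P1 and P7 in control nuclei, on which the choice of the gene rested, was 1.86 on the log2 scale (3.62-fold), in a comparison in which 0.00982% of all genes were called. A gene was called at an adjusted p below 0.05 with a log2 fold change beyond 1 in either direction.

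The Casp2-depleted libraries give Mhrt in samples that the choice did not use. It stood at 5302, 6300, 4243 and 13417 CPM in the 4 P1 libraries, at 17266, 32624, 25395 and 20988 at P7 and at 4371, 3119 and 3006 at P14. The groups of P1 and P7 did not overlap, nor did those of P7 and P14. Of all tested genes, 1.48% were likewise higher at P7 than at P1 and 10.9% lower at P14 than at P7. Mhrt rose by 1.72 on the log2 scale from P1 to P7 (standard error 0.28, 3.29-fold, adjusted p = 3.2e-05 by edgeR's quasi-likelihood test), where 0.0196% of all genes were called. It was higher at P7 under each of the 4 replicate numbers, by 0.65 to 2.58. This call was lost in 8 of 14 alternative analyses, although the log2 fold change stayed at 1.51 to 1.83. Among them were DESeq2 (adjusted p = 0.103), limma-trend (1.00), the replicate block (1.00) and the fit with the share of reads outside genes. The call was also lost without P7 Casp2-depleted replicate 1 (adjusted p = 0.103). The standard error of limma-trend was 0.50, larger than that of the fit. A two-sided exact permutation test of the log2 levels gave p = 0.0286, the smallest possible for 4 against 4, and 0.229 after adjustment over 32 such tests, which could not reach 0.05 at these group sizes.

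From P7 to P14 Mhrt fell by 2.78 on the log2 scale in Casp2-depleted nuclei (standard error 0.33, 6.88-fold lower, adjusted p = 2.83e-13), in a comparison in which 2.83% of all genes were called. In control nuclei it fell by 2.23 (standard error 0.32, 4.69-fold lower, adjusted p = 1.57e-08), with 1.88% of all genes called. The control comparison shares its P7 libraries with the comparison of P1 and P7 above. The median of all genes also moved, by -0.61 in Casp2-depleted and -0.75 in control nuclei, and relative to it Mhrt stood at -2.17 and -1.48. Within shared replicate numbers Mhrt was lower in 3 of 3 pairs of each genotype. Under the replicate block the control call was lost (adjusted p = 0.133) and the Casp2-depleted call was kept (0.0307). Both calls were kept by DESeq2 (adjusted p = 0.00167 and 1.53e-05) and by limma-trend (0.0290 and 0.00714). In the fit that held the share of reads outside genes both were lost (adjusted p = 0.465 and 0.186), at log2 fold changes of -1.51 and -2.06 for Mhrt. The control call was also lost with no filter (adjusted p = 0.0862) and with all 24 libraries (-1.34, adjusted p = 0.190), where P14 control replicate 3 added 24651 CPM of Mhrt. With library totals in place of TMM, Mhrt differed by -1.42 and -2.01, still called. The exact permutation test of the log2 levels gave p = 0.0571 in either genotype, the smallest possible for 4 against 3, and 0.229 after adjustment.

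Over the whole period from P1 to P14 Mhrt fell by 1.06 in Casp2-depleted nuclei (standard error 0.30, adjusted p = 0.0304), where 1.94% of all genes were called. This value lay next to the fold threshold, the 2 groups overlapped, and the call was lost in 10 of 14 alternatives and in 10 of 21 fits without a library, with an adjusted p of 0.601 under the replicate block. In control nuclei the difference was -0.37 (95% interval -1.05 to 0.30, adjusted p = 0.700), where 0.319% of all genes were called.

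**Figure D3:**
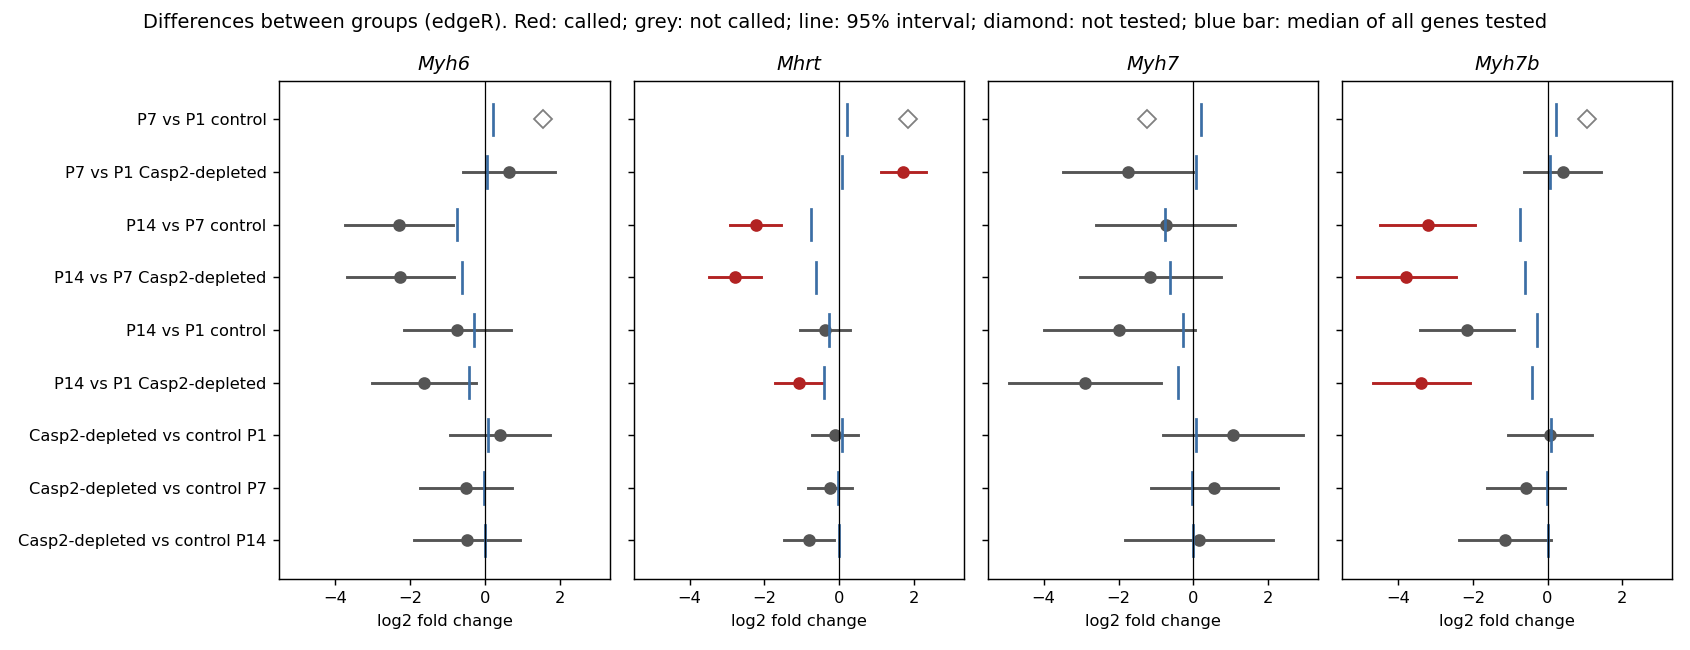
Log2 fold changes of the 4 genes (x axis) in 9 comparisons (y axis), with 95% intervals, the called ones in red and the median of all genes tested as a blue bar. Mhrt and Myh7b are called between P7 and P14 in both genotypes. The intervals rest on 15 residual degrees of freedom and can be wider than the test implies. Between genotypes each includes 0, apart from that of Mhrt at P14 (-1.47 to -0.12), which was not called.

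Myh6, which encodes the alpha myosin heavy chain of the mature mouse ventricle, had its highest means at P7 as well, and whether its difference between P7 and P14 was called depended on the fit. In control nuclei it stood at 1495, 7400 and 7330 CPM at P1, at 12321, 21048, 17347 and 13059 at P7, and at 6093, 1128 and 2525 at P14. In Casp2-depleted nuclei it stood at 6886, 2881, 3013 and 16117 at P1, at 13335, 11155, 13044 and 7584 at P7, and at 2911, 1958 and 2185 at P14. The P7 libraries lay above all P14 libraries in both genotypes, as for 13.5% of all tested genes in control and 10.9% in Casp2-depleted nuclei. In 1 Casp2-depleted P1 library, replicate 4, Myh6 was above all Casp2-depleted P7 libraries. The log2 fold change between P1 and P7 was 1.56 in control nuclei, given without a test, and 0.64 in Casp2-depleted nuclei (95% interval -0.59 to 1.87, adjusted p = 1.00). Between P7 and P14 it was -2.30 in control nuclei (adjusted p = 0.111) and -2.26 in Casp2-depleted nuclei (adjusted p = 0.0952), and these did not pass the threshold. Of 7 settings of the edgeR quasi-likelihood fit compared after the data were seen, however, 5 called Myh6 lower at P14 in both genotypes. DESeq2 called it too (adjusted p = 0.00624 and 0.0101 for Myh6), whereas limma-trend called it in control nuclei (0.0447) and not in Casp2-depleted nuclei (0.0844). In the fit with the share of reads outside genes the Myh6 values were -1.07 and -0.90 (adjusted p = 0.604 and 0.681), and with all 24 libraries the control value was -0.96 (0.272). The fit used here gave Myh6 only 1.94 prior degrees of freedom, against 581 for Mhrt, so that its error rested mainly on its own spread. The errors of Mhrt and of Myh7b, whose prior degrees of freedom were infinite, rested almost wholly on the spread shared over genes. The coefficient of variation that the fit estimated was alike for Myh6 (0.600) and Mhrt (0.596). That Mhrt was called and Myh6 was not is therefore no measure of a difference between these genes. Myh6 was lower at P14 than at P7 in all of these analyses. From P1 to P14 in Casp2-depleted nuclei it was not called here and was called in 5 of the 7 settings.

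Mhrt had more reads than Myh6 in 19 of the 21 libraries, over gene spans of 23.3 and 26.5 kb. The ratio of Mhrt to Myh6 reads had a median of 1.56 and ran from 0.770 to 2.92, the lowest in P1 Casp2-depleted replicate 1 and the highest in P7 Casp2-depleted replicate 2. The group medians were 1.42 (P1 control), 1.12 (P1 Casp2-depleted), 1.84 (P7 control), 2.36 (P7 Casp2-depleted), 2.40 (P14 control), while the P14 Casp2-depleted libraries ran from 1.38 to 1.59, with overlapping libraries in every comparison. None of the 8 comparisons tested passed a two-sided exact permutation test of the log2 ratio after Benjamini-Hochberg adjustment (all adjusted p = 0.457). With 3 or 4 libraries a group, no adjusted p could reach 0.05 whatever the values, so these tests neither show nor exclude a difference of the ratio.

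**Figure D4:**
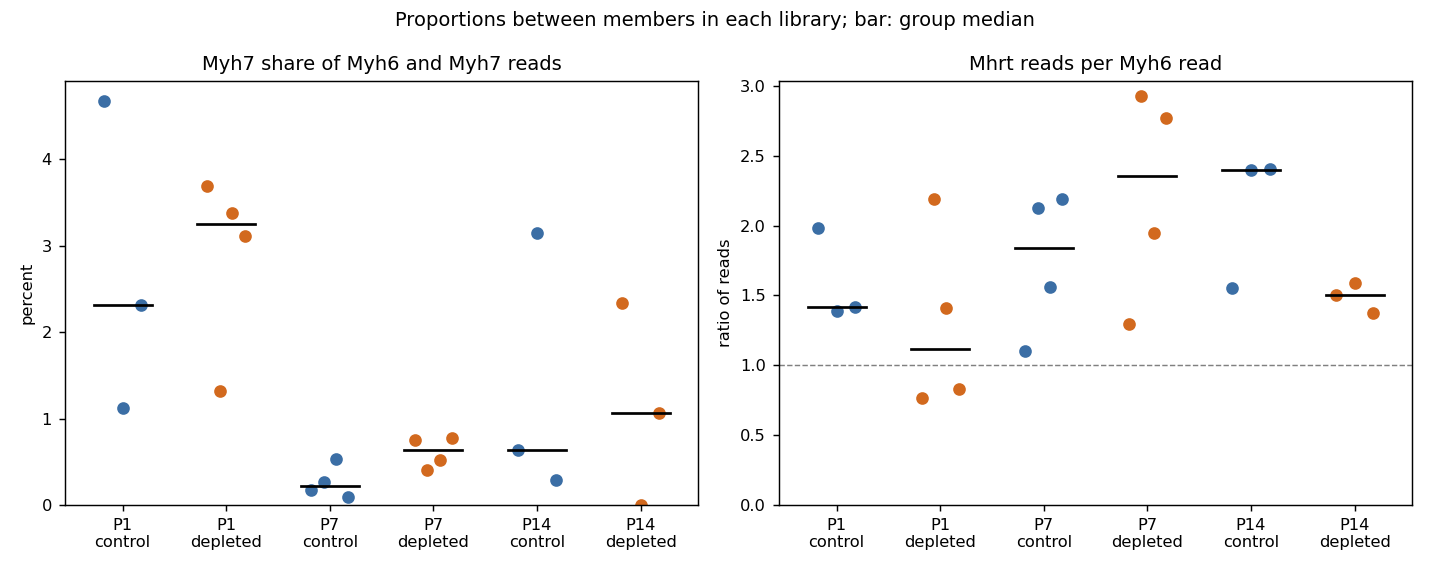
The Myh7 share of Myh6 and Myh7 reads in percent (left) and Mhrt reads per Myh6 read (right) in each of the 21 libraries, by day and genotype, with bars at the group medians and a dashed line at a ratio of 1. The Myh7 share is at most 0.779% in the 8 P7 libraries and at least 1.13% in the 7 P1 libraries, and 19 libraries have more Mhrt than Myh6 reads.

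Myh7, which encodes the beta chain of the fetal ventricle, had 0 to 1040 reads per library and was highest at P1. In control nuclei it stood at 73.2, 84.3 and 173 CPM at P1, at 22.4, 57.4, 93.3 and 13.5 at P7, and at 39.5, 36.6 and 7.57 at P14. In Casp2-depleted nuclei it stood at 264, 38.5, 105 and 518 at P1 and at 101, 45.8, 69.3 and 59.6 at P7. At P14 it stood at 69.6 and 23.5 in 2 Casp2-depleted libraries and at 0 of 1084051 reads in replicate 3, which allows up to 2.77 CPM. The groups overlapped in all comparisons between days but that of P1 and P14 in control nuclei, where 6.41% of all tested genes were lower with no overlap. The log2 fold change from P1 to P7 was -1.24 in control nuclei, without a test, and -1.75 in Casp2-depleted nuclei (95% interval -3.48 to -0.01, adjusted p = 0.672). From P7 to P14 it was -0.74 (adjusted p = 0.714) and -1.15 (0.504), and from P1 to P14 -1.98 (0.428) and -2.90 (0.0862). No difference of Myh7 was called in this fit. The last of these was called in 3 of 15 alternatives, limma-trend (-3.56, adjusted p = 0.0420) and DESeq2 (0.0481) among them, and in 4 of the 7 quasi-likelihood settings.

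As a share of the reads on Myh6 and Myh7 together, Myh7 made up 1.13 to 4.67% in P1 control libraries and 0.103 to 0.535% at P7, which is given without a test. In Casp2-depleted nuclei the share was 1.32 to 3.69% at P1 and 0.409 to 0.779% at P7, and the libraries did not overlap. The means were 2.87 ± 1.06% (SD, n = 4) and 0.617 ± 0.179% (n = 4), with p = 0.0286 by a two-sided exact permutation test, the smallest that 4 against 4 libraries can give, and an adjusted p of 0.229 over the 8 comparisons of this share, which at these group sizes could not reach 0.05. At P14 it was 0.299 to 3.15% in control and 0 to 2.33% in Casp2-depleted libraries, which overlapped both earlier days. Between genotypes at P7 the share was 0.617% against 0.273 ± 0.188% (n = 4), with overlapping libraries and an adjusted exact permutation p of 0.229.

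Since Mhrt covers most of Myh7, the strand of the counting bears on these values. The counting setting is not stated, and it was read from the counts. Of 843 protein-coding genes that lie wholly inside a gene of the opposite strand, 66.1% had reads, close to the 69.0% of 9682 genes with no overlapping gene, whereas of 416 genes inside a gene of their own strand 9.13% had reads. Reads were thus kept apart by strand. Reads on Myh7 came to 14.1 per 1000 Mhrt reads in P1 control nuclei and 33.7 in P1 Casp2-depleted nuclei, and to 1.69 and 3.17 at P7 and 4.59 and 8.55 at P14. Of 30 other genes that lie inside an abundant gene on its opposite strand, 19 had 0 reads and the highest had 17.1 per 1000 reads of the outer gene. Those with 0 reads spanned at most 5.82 kb, against 20.9 kb of Myh7 under Mhrt. Those longer than 20.9 kb had 0.0338 (Gm13938), 4.11 (Gm35254), 13.4 (Gm16351), 15.8 (Lrrtm3) and 17.1 (Sorbs2os) per 1000. The part of stray reads from the Mhrt strand in the Myh7 values of P7 and P14 was not tested.

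Myh7b, the relative on chromosome 2 that hosts miR-499, fell most between P7 and P14 of the 4 genes. In control nuclei it stood at 192, 284 and 532 CPM at P1, at 478, 904, 725 and 685 at P7, and at 53.6, 33.6 and 139 at P14. In Casp2-depleted nuclei it stood at 215, 90.9, 219 and 892 at P1, at 418, 432, 763 and 259 at P7, and at 40.8, 35.8 and 25.5 at P14. All P14 libraries of control nuclei lay below those of P1 and P7, and the same held in Casp2-depleted nuclei. Of all tested genes in control nuclei, 6.41% were lower at P14 than at P1 with no overlap, and 13.5% lower than at P7. In Casp2-depleted nuclei these shares were 4.78% and 10.9%. From P7 to P14 Myh7b fell by 3.21 on the log2 scale in control nuclei (standard error 0.60, 9.24-fold lower, adjusted p = 4.53e-05) and by 3.78 in Casp2-depleted nuclei (standard error 0.62, 13.7-fold lower, adjusted p = 3.42e-07). From P1 to P14 it fell by 3.38 in Casp2-depleted nuclei (standard error 0.61, adjusted p = 1.16e-05), a call lost in limma-voom (0.240) and with all 24 libraries (0.114). The value in control nuclei was -2.15 (95% interval -3.41 to -0.90, adjusted p = 0.0718).

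The falls of Myh7b from P7 to P14 held in 14 of 15 alternatives in either genotype and in all 21 fits that left out 1 library. They also held under the replicate block and in the fit with the share of reads outside genes (log2 fold changes of -2.23 and -2.87 for Myh7b). With library totals in place of TMM they were -2.32 and -3.01. The exception in control nuclei was the fit of all 24 libraries (-1.05, adjusted p = 0.589), which adds P14 control replicate 3 with 1067 CPM of reads on genes, above the 43.8 to 206 of the other P14 control libraries. The exception in Casp2-depleted nuclei was limma-voom (adjusted p = 0.0923). From P1 to P7 Myh7b changed by 1.06 in control nuclei, without a test, and by 0.40 in Casp2-depleted nuclei (95% interval -0.64 to 1.44), which did not pass the test.

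**Figure D5:**
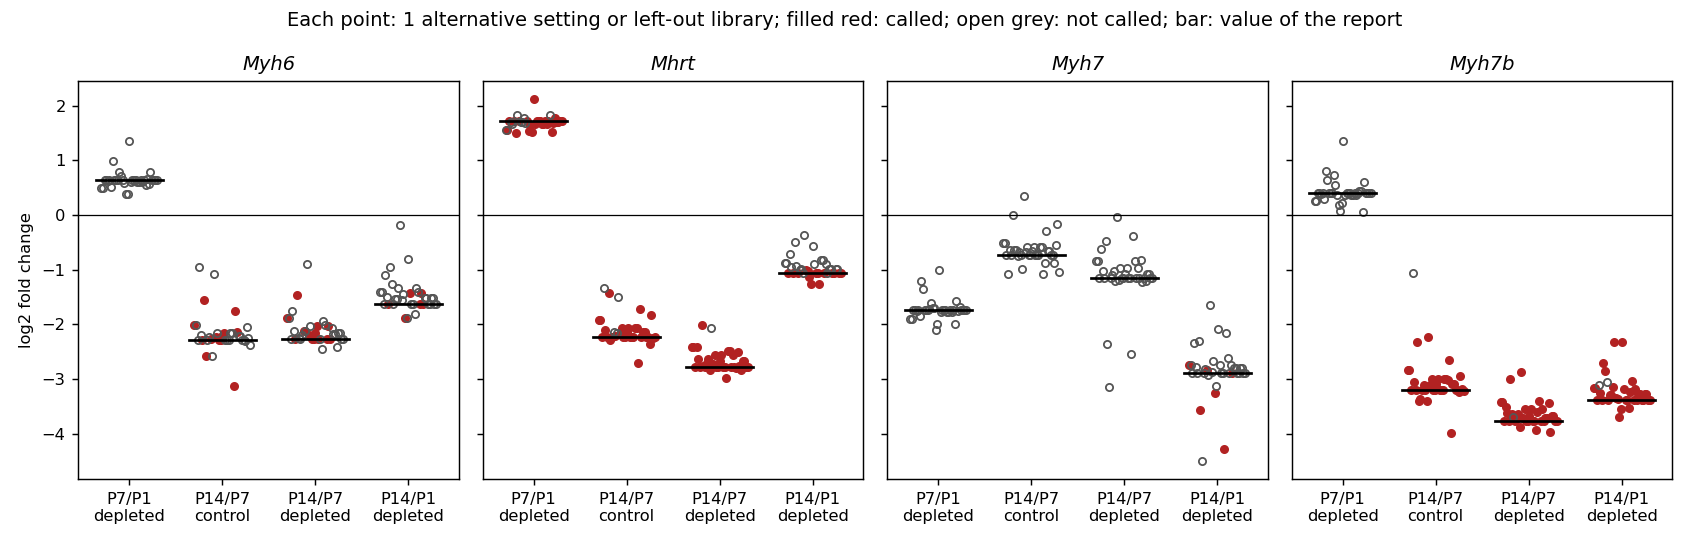
Log2 fold changes of each gene (y axis) in 4 comparisons between days (x axis), with 1 point for each of 14 or 15 alternative analyses and 21 fits without a library, red where called, and a bar at the value of the report. The Myh7b points between P7 and P14 are red but for 1 in each genotype, while those of Mhrt between P1 and P14 are split.

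Whether the removal of Casp2 from CMs altered these genes was asked at each day. No member was called at P1 or P7, where 0% of all genes were called (0 by edgeR at an adjusted p below 0.05, and 1496 and 860 at an unadjusted p below 0.05), nor at P14, where 0.167% were. At P14, Mhrt stood at 3498 ± 757 CPM (SD, n = 3) in Casp2-depleted nuclei against 6082 ± 3385 (n = 3) in control nuclei, a log2 fold change of -0.80 (95% interval -1.47 to -0.12, adjusted p = 0.373). Myh7b differed by -1.15 (95% interval -2.38 to 0.08, adjusted p = 0.389), and its unadjusted p was 0.0468 by the quasi-likelihood test. This interval is wider than that test implies, since it rests on 15 residual degrees of freedom alone. At P7, Mhrt differed by -0.24 (95% interval -0.83 to 0.34), Myh6 by -0.50 (-1.73 to 0.73), Myh7b by -0.58 (-1.62 to 0.47) and Myh7 by 0.56 (-1.13 to 2.26). At P1, the values were -0.11 (-0.73 to 0.52) for Mhrt, 0.42 (-0.92 to 1.75) for Myh6, 0.08 (-1.05 to 1.20) for Myh7b and 1.07 (-0.80 to 2.94) for Myh7. For Myh6 and Myh7 the values at P14 were -0.47 (-1.89 to 0.95) and 0.15 (-1.82 to 2.12). All libraries of the genotypes overlapped for each gene and day.

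A difference between genotypes in the change between days was not called for any of the 4 genes, with wide intervals. The interaction of P1 and P7 also uses the control libraries on which the choice of Mhrt rested. The interaction of genotype and day called no member between P1 and P7 (0% of all genes called, 1392 at an unadjusted p below 0.05), between P7 and P14 (0.0245%) or between P1 and P14 (0.0638%). For Mhrt it was -0.14 (95% interval -0.99 to 0.72) between P1 and P7, -0.55 (-1.44 to 0.33) between P7 and P14 and -0.69 (-1.61 to 0.23) between P1 and P14. For Myh7b the same values were -0.65 (-2.19 to 0.88), -0.57 (-2.17 to 1.03) and -1.22 (-2.89 to 0.44). They were -0.92 (-2.73 to 0.90), 0.03 (-1.84 to 1.91) and -0.88 (-2.83 to 1.07) for Myh6, and -0.51 (standard error 1.17), -0.41 (-3.01 to 2.19) and -0.92 (-3.62 to 1.78) for Myh7.

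The proteins and factors that work with these genes were described in lists, by how many members were called in each comparison. Between P1 and P7 no gene of any list was called. Of 13 thick filament partners, 3 fell between P7 and P14 in control nuclei (1.88% of all genes called) and 4 in Casp2-depleted nuclei (2.83%), and the list had median log2 fold changes of -2.78 and -2.06. Myom1, the M-band crosslinker myomesin 1, fell by 2.46 (adjusted p = 2.57e-05) and 3.33 (1.57e-09). Myl2, the ventricular regulatory light chain that binds to the myosin neck, fell by 2.16 (adjusted p = 0.000144) and 2.03 (0.000232). Myom2 fell in Casp2-depleted nuclei, by 2.87 (adjusted p = 0.0153). From P1 to P14 Myom1 (by 2.75, adjusted p = 1.07e-06) and Myl2 (by 1.39, adjusted p = 0.0445) fell in Casp2-depleted nuclei, and no partner was called in control nuclei.

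Of 24 tested thyroid hormone and DNA-binding regulators of the myosin genes, 4 fell between P7 and P14 in control nuclei (1.88% of all genes called) and 6 in Casp2-depleted nuclei (2.83%), with list medians of -1.33 and -2.08. Mef2a, a muscle transcription factor, fell by 3.20 (adjusted p = 0.000814) and 3.70 (3.82e-05). Its relative Mef2d fell by 2.43 (adjusted p = 0.0140) and 2.45 (0.00858), and Gata4, a cardiac zinc finger factor, fell by 2.30 (0.00103) and 2.25 (0.000775). From P1 to P14 the same genes fell in Casp2-depleted nuclei, Mef2a by 3.44 (adjusted p = 0.000234), Mef2d by 2.37 (0.0177) and Gata4 by 1.97 (0.00712).

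Of 13 chromatin partners around Mhrt, 3 fell between P7 and P14 in control nuclei (1.88% of all genes called) and 5 in Casp2-depleted nuclei (2.83%), with list medians of -1.39 and -2.14. Smarca4, which encodes Brg1, stood at 215 ± 44.9 CPM (SD, n = 4) at P7 and 37.2 ± 31.5 (n = 3) at P14 in control nuclei, a fall of 2.53 on the log2 scale (adjusted p = 0.0148). In Casp2-depleted nuclei it fell by 4.37 (adjusted p = 1.14e-06). Ezh2, the methyltransferase of Polycomb repressive complex 2, fell by 4.14 (adjusted p = 0.00276) and 5.42 (3.92e-05). Smarcc1, a core subunit of the same remodeler as Brg1, fell by 2.21 (0.0467) in control nuclei and fell by 2.29 (0.0247) in Casp2-depleted nuclei. From P1 to P14, Smarca4 fell by 2.83 in control nuclei (adjusted p = 0.0217), with overlapping groups, and fell by 4.50 in Casp2-depleted nuclei (1.08e-06). There Ezh2 fell by 4.49 (adjusted p = 0.00117).

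Of 11 tested genes of myosin folding and turnover, 3 fell between P7 and P14 in control nuclei (1.88% of all genes called) and 2 in Casp2-depleted nuclei (2.83%), with list medians of -2.70 and -1.67. Trim55, a ubiquitin ligase of the sarcomere (MuRF2), fell by 3.96 (adjusted p = 6.88e-09) and fell by 3.51 (8.95e-08). Smyd1, which methylates myosin and helps to assemble it, fell by 3.30 in control nuclei (adjusted p = 0.0167). The ubiquitin ligase subunit Fbxo32 was called lower there too (adjusted p = 0.0111), from 87.0 ± 26.4 CPM (SD, n = 4) to 0.249 ± 0.432 (n = 3), which is under 3 reads in a library, so no fold is given. The chaperone Hsp90ab1 fell by 1.67 in Casp2-depleted nuclei (adjusted p = 0.0143). From P1 to P14, Trim55 fell by 2.86 in control nuclei (adjusted p = 0.000326) and fell by 3.77 in Casp2-depleted nuclei (2.13e-08). Of 10 other tested myosin heavy chain genes, of skeletal, smooth and nonmuscle types, none was called in any comparison. Between genotypes no gene of the 5 lists was called. Against the medians of all genes, -0.75 and -0.61, the medians of the lists that held called genes lay lower between P7 and P14. Lists picked by their called falls lie low in part through that choice. The CM marker sum fell between these days as well, so this is only a description of these genes.

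The genes most like each member across the 21 libraries were ranked by Spearman's rho of log2 CPM among 8259 genes with a mean of at least 20 CPM. The libraries share the day effect and differ in depth, so rho is a description. For Myh6 they were Mybpc3, its partner in the thick filament (rho 0.97), Sltm, Zfp326, Ggnbp2 and Ttn (titin, 0.96). For Mhrt they were Eif5b, Pnisr, Nexn, Sltm and Rabl6 (0.95 to 0.96). For Myh7b they were Lmo7, Srrm1, Myo18a, Tnrc18 and Tcea3 (0.95 to 0.97). For Myh7 the highest values were lower, with Vcl, Mpped2, Kpna6, Usp3 and Ror2 at 0.74 to 0.79. Among the members, Myh6 had a rho of 0.91 with Mhrt, 0.90 with Myh7b and 0.35 with Myh7, while Mhrt and Myh7 stood at 0.09. Among all genes compared with Myh6, Mhrt took rank 70.

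The neighbours of both loci were low. On chromosome 14, Il25 had 0 reads in the 21 libraries, and Cmtm5, Ngdn and Zfhx2 reached at most 30.8, 13.8 and 78.8 CPM in any library. On chromosome 2, Gss, Trpc4ap and Edem2 reached at most 23.2, 63.5 and 73.7, and Acss2, an acetyl-CoA synthetase, reached 343. These levels are not divided by gene length.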

How the data were processed

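Whole-number counts of reads per gene were deposited for 24 libraries (QuantSeq 3′ FWD, single-end). Per the labels and the methods, the authors trimmed reads with cutadapt 4.0, aligned them with STAR 2.6.1e to GRCm39 and counted them with HTSeq 2.0.3 over whole genes, exons and introns, by Ensembl release 108, without normalization. The strand setting was not given in the sources used here. Names were taken from GENCODE vM39 by identifier.

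Groups came from the labels. Genes with at least 10 reads in all and a read in 3 libraries were tested with edgeR 4.0.16 (quasi-likelihood, TMM, 1 mean per group, 21 libraries), with Benjamini-Hochberg adjustment over 20368 genes. Intervals are 95%. Whether the fit was robust or legacy had not been fixed beforehand: 7 settings were compared after their results were seen, and the robust legacy fit was kept because earlier work on these data had used it. Members and lists were chosen with earlier results of these data known, and the named list genes are the 3 with the largest called change per list and comparison, of which some are not reported here. Alternatives were other filters, scalings, sample sets and terms, DESeq2 1.42.0 and limma 3.58.1. The intervals of log2 fold changes come from the fit and include the spread between pools. The limits given for libraries without reads on a gene cover counting error only, and reads carried no molecular identifiers. The fit was checked on simulated data.

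Deposited file names mark the replicate number as a batch, so the replicate block and the comparisons within replicate numbers took numbers as pairing libraries. The main fit and the permutation tests held no term for the replicate number, so their p-values do not use this pairing. Deviations of 9 same-numbered pairs, each of a control and a Casp2-depleted library of the same day, correlated at -0.0976 to 0.267, 5 of them over 0.1. In only 4 of the 9 was this higher than with every Casp2-depleted library of another number. Pairing between days was not checked.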

Additional observations from a re-analysis of the deposited data

Results flagged for a closer look

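In P1 Casp2-depleted nuclei, replicate 4 stood apart for Myh7b, with 892 CPM against 90.9 to 219 in the 3 other libraries. Its high level was not particular to Myh7b. Replicate 4 was also the highest of its group for Myh6 (16117 CPM), Mhrt (13417) and Myh7 (518). Of the kept P1 libraries it was the deepest (2727103 reads) and had the smallest share outside genes (36.8%). The part of these library differences in the flag was not tested. Among the P1 Casp2-depleted libraries the ratio of Mhrt to Myh7 reads was set apart in replicate 2, at 162. Both flags set the gap to the next library against the range of the group, on values without logarithm. How often chance gives such a gap was not measured in these data.

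The libraries that the study left out held member levels beyond those of their groups, in CPM of reads on genes. P1 control replicate 1 had 10503 CPM of Myh6 and 440 CPM of Myh7, against at most 7117 and 168 in the kept libraries, and 9.21% of its reads lay on no gene. P14 control replicate 3 had 21818 CPM of Myh6, 24651 CPM of Mhrt and 1067 CPM of Myh7b, against at most 6761, 10511 and 206. P14 Casp2-depleted replicate 1 had 8552 CPM of Myh6 and 9964 CPM of Mhrt, against at most 3547 and 5326. The study gave few detected genes as its reason for both P14 libraries. For P1 control replicate 1 it gave signs of cytoplasmic contamination.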

How the results depend on the processing

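Members called, as a count of the 4 genes, moved with the analysis. Between P1 and P7 in control nuclei, where the choice rested on the value of Mhrt and the count is a description, it was 1, and 0 with edgeR filterByExpr, no filter, limma-trend, all 24 libraries, the replicate block, the term for reads outside genes and only the groups compared, 2 without robust fitting, and 0 to 2 with 1 library left out. In Casp2-depleted nuclei (1 called) it was 0 under the same settings but robust fitting, and under DESeq2, and 0 to 1 with a library left out. Between P7 and P14 in control nuclei (2 called) it was 1 with no filter, the block and the term, 0 with all 24 libraries, and 3, with Myh6, with totals without TMM, DESeq2, limma-trend, no robust fitting, only the groups compared and equal depth. In Casp2-depleted nuclei (2 called) it was 1 with the term, and 3 under the same settings but limma-trend. Between P1 and P14 it was 1 with the term in control nuclei (0 called; 0 to 1 with a library left out). In Casp2-depleted nuclei (2 called) it was 1 with filterByExpr, no filter, DESeq2 size factors, totals without TMM, the block and the term, 0 with all 24 libraries, and 1 to 4 with a library left out. limma-voom gave no value for Mhrt and Myh6, because its trend of the spread was below 0 at their level (-0.25 and -0.17), and limma-trend was added after seeing the data. Over the 7 settings of the quasi-likelihood fit, also compared after seeing the data, Mhrt was called between P1 and P7 in Casp2-depleted nuclei in 7, Myh6 between P7 and P14 in 5 of each genotype, and between P1 and P14 in Casp2-depleted nuclei Mhrt in 3, Myh6 in 5 and Myh7 in 4. The genes called between genotypes at P14 numbered 0 to 47.

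With all 24 libraries the sign changed for Myh6 between P1 and P14 in control nuclei (0.24), Mhrt there (0.72), Mhrt between genotypes at P1 (0.15), and the interactions of Myh6 between P7 and P14 (-0.80) and of Myh7 (0.38, 0.46 and 0.83). The term for reads outside genes changed it for Myh6 between genotypes at P1 (-0.31), Myh7 between P7 and P14 in control nuclei (0.35), Myh7b between genotypes at P1 (-0.54) and the interactions of Myh6 (0.070 and 0.24), Myh7 (0.43 and 0.042), Myh7b (0.17) and Mhrt (0.37). Totals without TMM changed it for Myh7b between genotypes at P1 (-0.16) and the Mhrt interaction of P1 and P7 (0.12). limma-voom and limma-trend changed it for Myh7 between genotypes at P14 (-1.54 and -0.86), its interaction of P1 and P7 (0.11 and 0.27) and Myh7b between genotypes at P1 (-0.058 and -0.30). None of these was called in either form, and the cause was not tested.

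With 1 library left out, differences between genotypes ran from -0.32 to 0.71 (Myh6, P1), -0.74 to 0.36 (Myh6, P14), -1.24 to 0.80 (Myh7, P14), -0.91 to 0.58 (Myh7b, P1), -0.54 to 0.14 (Mhrt, P1) and -0.46 to 0.068 (Mhrt, P7). Interactions ran from -0.28 to 0.86 (Myh6, P7 to P14), -0.99 to 0.27 (Myh7, P1 to P7), -1.81 to 0.20 (Myh7, P7 to P14), -1.15 to 0.35 (Myh7b, P1 to P7), -0.91 to 0.22 (Myh7b, P7 to P14) and -0.39 to 0.31 (Mhrt, P1 to P7), and Mhrt from P1 to P14 in control nuclei from -0.85 to 0.066. The Myh7 share differed between genotypes by -0.158 points at P1 and 0.168 at P14 with all 24 libraries, by -0.0989 at P1 under the replicate block, and by -0.616 to 1.16 (P1) and -0.831 to 0.662 (P14) with a library left out, and from P7 to P14 in Casp2-depleted nuclei by -0.0847 to 1.08. The log2 ratio of Mhrt to Myh6 differed by 0.779 from P1 to P7 in control nuclei (-0.0311 to 0.298 with a library left out) and by 0.273 between genotypes at P1 with all 24 libraries. The replicate block changed no call of the 4 genes but those named here and in the report. At 891817 reads in the smallest library, low genes such as Myh7 and Casp2 are measured poorly.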
